A study of Mus musculus with 36 samples.

Results

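Wild-type CD4 T cells cultured under Th2 conditions were compared with wild-type CD4 T cells cultured under Treg conditions, with 3 samples of each, 6 of the 36 samples of the series. The 6 samples were taken by their titles, and genes were taken from array probe sets annotated with exactly 1 symbol, which gave 22180 genes, of which 13082 passed a filter on low values and were tested. Both groups came from naive CD4 T cells of wild-type littermate mice that were enriched magnetically, sorted by flow cytometry and activated over 72 h by anti-CD3 fixed to the plate together with dissolved anti-CD28. The other samples were wild-type naive, Th0, Th1 and Th17 cells and the same 6 states from TRIM28KO mice, 3 samples each. The cytokines of each culture, the mice's age, sex and strain and the way Trim28 was deleted are not given in the sources used here. Whether each sample is a different animal is not given either, so p-values measure a spread between samples that may be technical. That spread is pooled over all 12 groups of the series, not only the 2 compared. It can be wider than theirs, as for Gzmb, with an SD of 0.38 in Th2, 0.14 in Treg and 2.30 in TRIM28KO Th1. It can also be narrower, as for Rdh10, with an SD of 0.99 in Th2, 0.25 in Treg and 0.08 in wild-type Th0. Cd28, Cpa3, Il9 and Rdh10 lost their calls with only the 2 groups in the fit. RNA was measured on Affymetrix arrays as log2 intensities (robust multi-array average, RMA), so a difference of 1 is 2-fold, and values of different genes are not levels that can be set against each other.

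Th2 cells and Treg cells are alternative fates of a naive CD4 T cell. Th2 cells, instructed by IL-4 through STAT6 and GATA3, make IL-4, IL-5 and IL-13 and drive responses to helminths and allergens. Treg cells, marked by the transcription factor FOXP3 and in culture usually induced with TGF-beta and IL-2, restrain other T cells.

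Gata3, Il4, Il13, Foxp3 and Ikzf2 differed in the direction of the labels. The Treg markers Il2ra and Ctla4, given with the Treg core genes below, were not called. Transcripts of Gata3, the master regulator of Th2 cells, stood at 10.36, 10.57 and 10.49 in the 3 Th2 samples and at 8.41, 9.07 and 9.09 in the 3 Treg samples. The groups did not overlap, and Gata3 was 3.07-fold higher in Th2 (log2 difference 1.62, SE 0.17, adjusted p = 4.65e-09 by limma with Benjamini-Hochberg adjustment over the 13082 genes, as for all adjusted p-values here). Il4, the cytokine that instructs and is made by Th2 cells, was at 8.33, 8.67 and 8.70 in Th2 and at 4.12, 3.92 and 3.89 in Treg, a fitted 24.1-fold difference (adjusted p = 1.545e-17). The Treg values lie under the table's median of 5.26, the value of the low filter, where signal and background cannot be told apart without detection calls, which were not used here. Such folds depend on that background, so the fold against the filter value is given too for the leading genes, and for Il4 it was 9.92. All other folds below whose lower group averages under 5.26 carry the same limit. Il13, a Th2 effector cytokine that acts on epithelium and smooth muscle, was at 10.38, 10.21 and 10.61 in Th2 and at 5.90, 6.02 and 6.11 in Treg, a 21.0-fold difference (adjusted p = 2.795e-12). Both cytokine genes were thus high in every Th2 sample and low in every Treg sample. Il5, the eosinophil growth factor, was below the filter and was not tested, with 5.20 to 5.67 in Th2 and 4.26 to 4.49 in Treg. Foxp3 stood at 6.12, 5.75 and 6.08 in Th2 and at 12.004, 12.24 and 12.35 in Treg, 74.2-fold higher in Treg (log2 difference -6.21, SE 0.35, adjusted p = 1.26e-14). Ikzf2, which encodes Helios, a transcription factor of Treg cells, was at 5.66, 5.70 and 5.92 in Th2 and at 9.62, 9.86 and 10.29 in Treg, 17.9-fold higher in Treg (adjusted p = 1.67e-12).

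Because these cytokine genes and Foxp3 define the comparison, the 250 bases before their annotated starts are shown as RefSeq gives them on GRCm38.p6, 5′ to 3′ in the direction of transcription. They come from chr11:53618666-53618915 (minus strand) for Il4, chr11:53634703-53634952 (minus strand) for Il13 and chrX:7579426-7579675 (plus strand) for Foxp3, upstream of the first exon in each case. Capitals mark matches, on either strand, to any of 4 short motifs. The STAT-type core is TTC, then 4 bases of any kind, then a closing GAA. For the zinc finger family of Gata3 the search used AGATAA. For SMAD proteins the search used TGTCTG. For forkhead proteins such as Foxp3 it used GTAAACA. No motif was contained in another.
Il4: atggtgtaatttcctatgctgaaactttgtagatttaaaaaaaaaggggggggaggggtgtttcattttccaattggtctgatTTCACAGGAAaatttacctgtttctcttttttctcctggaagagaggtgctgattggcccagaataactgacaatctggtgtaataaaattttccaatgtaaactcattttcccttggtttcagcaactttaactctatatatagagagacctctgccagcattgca
Il13: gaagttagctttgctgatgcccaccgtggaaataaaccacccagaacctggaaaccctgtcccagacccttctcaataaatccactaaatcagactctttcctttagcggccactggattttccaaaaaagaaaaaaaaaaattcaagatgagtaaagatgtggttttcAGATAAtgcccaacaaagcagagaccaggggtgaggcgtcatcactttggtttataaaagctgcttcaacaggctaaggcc
Foxp3: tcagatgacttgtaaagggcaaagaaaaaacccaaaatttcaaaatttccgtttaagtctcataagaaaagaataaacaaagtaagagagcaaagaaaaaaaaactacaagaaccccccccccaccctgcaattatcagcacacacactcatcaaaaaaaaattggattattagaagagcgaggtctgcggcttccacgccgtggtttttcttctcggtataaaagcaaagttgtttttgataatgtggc
The Il4 window held 1 STAT-type match, TTCACAGGAA, whose first base lies 167 bases before the start, and the Il13 window held 1 AGATAA, 81 bases before the start. The Foxp3 window held none of the 4 in exactly these forms, and variant forms of the motifs were not searched. Il4 and Foxp3 each have 2 annotated starts, of which the most upstream was used, and windows before the other starts were not searched. Over promoters of this length, the STAT-type core was present in 5.65% of 974 promoters of genes at least 2-fold higher in Th2, 4.68% of 513 at least 2-fold higher in Treg and 4.5% of 10264 genes tested. AGATAA was present in 6.88%, 6.82% and 6.33% of the same sets, TGTCTG in 12.6%, 15.2% and 13.6%, and GTAAACA in 2.26%, 3.31% and 2.12%. Over all 27025 promoters of the table the shares were 5.88%, 10.2%, 17.1% and 3.06%, and a match is a description of the letters only.

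**Figure D1:**
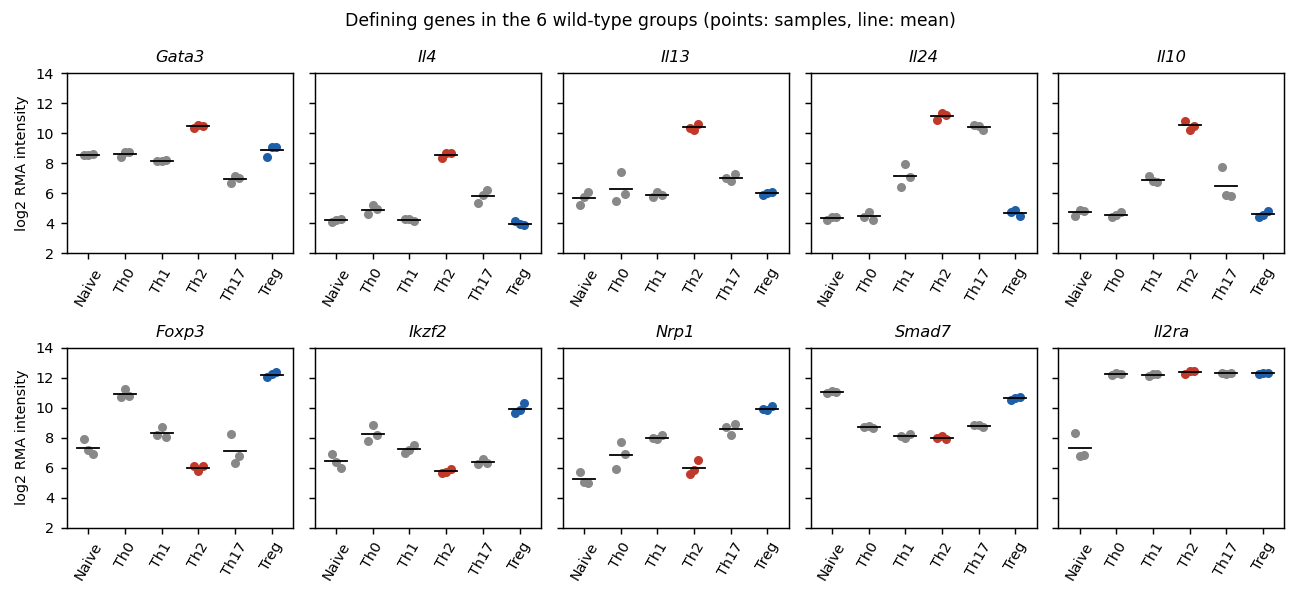
Log2 RMA intensity (vertical axis) of 10 genes in the 6 wild-type groups, 1 point a sample, with a line at the mean of 3 samples; Th2 is red, Treg blue and the other groups grey. Foxp3 was at 12.004 to 12.35 in Treg and at 10.90 on average in Th0, while Il2ra lay between 12.24 and 12.46 in every Th2 and Treg sample.

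Of the 13082 genes tested, 6726 were called at an adjusted p under 0.05 (51.4%), 3202 of them higher in Th2 (24.5%) and 3524 higher in Treg (26.9%). The median difference over all genes was -0.04 and the median size 0.32 on the log2 scale. Of the 1907 genes that differed at least 2-fold (14.6%), 1248 were higher in Th2 (9.54%) and 659 in Treg (5.04%). At 8-fold or more there were 139 and 40, and at 32-fold or more 21 and 4. The 3 Th2 samples lay wholly above or below the 3 Treg samples in 7298 genes (55.8%), above in 26.1% and below in 29.7%. The split by direction depended on scaling, since the share of called genes that were higher in Th2 was 47.6% in the values as deposited, 54.8% with each sample centred on its median, 54.1% after a further quantile normalization and 60.1% after cyclic loess (3994 higher in Th2, 2655 in Treg). These are bulk samples, so fewer cells that express a gene and less RNA per cell cannot be told apart.

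The samples fell by condition, with correlations across all genes of 0.990 to 0.996 within Th2, 0.990 to 0.995 within Treg and 0.948 to 0.959 between them. Sample 1 of a group stood apart in several genes, as given beside each. Trim28, the gene deleted in the TRIM28KO samples, was at 9.84, 9.99 and 9.69 in wild-type Th2 and 9.53, 9.21 and 9.33 in wild-type Treg, against 6.21 to 6.58 in the KO Th2 and Treg samples. The small wild-type difference (0.48, adjusted p = 0.0126) lost its call without Th2 sample 2 (adjusted p = 0.0639) or Treg sample 2 (adjusted p = 0.0633).

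The 12 largest differences in favour of Th2, leaving out genes on the sex chromosomes, had a Treg mean under the filter value in 10 genes, so their order and exact folds depend on background. Gzmb, which encodes the cytotoxic protease granzyme B, was at 11.07, 10.59 and 10.31 in Th2 and at 3.86, 3.58 and 3.65 in Treg, a fitted 125-fold difference (log2 difference 6.96, SE 0.70, adjusted p = 2.22e-09) and 42.2-fold against the filter value. Adamtsl3, a secreted ADAMTS-like matrix protein, was at 10.90, 11.29 and 11.15 against 4.42, 4.56 and 4.403, a fitted 100.7-fold difference (SE 0.14, adjusted p = 4.90e-24) and 58.0-fold against the filter value. Il24, a cytokine of the IL-10 family, was at 10.86, 11.33 and 11.21 against 4.77, 4.87 and 4.48, a fitted 85.9-fold difference (adjusted p = 3.37e-15) and 58.6-fold against the filter value. In each of these genes the lowest Th2 sample was more than 5 log2 units above the highest Treg sample. Tnfrsf8, the TNF receptor family member CD30, was at 11.57, 11.94 and 11.89 against 5.16, 5.52 and 5.57, 83.5-fold higher. Il10, the regulatory cytokine, was at 10.84, 10.24 and 10.50 against 4.41, 4.54 and 4.80, 61.5-fold higher (adjusted p = 4.49e-12). The inhibitory receptor gene Lilrb4a, the protease-activated receptor gene F2rl2, the serotonin receptor gene Htr1b, the guanylate-binding protein gene Gbp11, the ephrin gene Efna5, the ion channel gene Trpm6 and the MHC class II gene H2-Ab1 differed by 81.9-, 72.2-, 72.2-, 65.6-, 58.9-, 57.8- and 42.6-fold in turn. The X-linked Rnf128, a ubiquitin ligase linked to T cell anergy and chosen after its values were seen, was 49.7-fold higher in Th2. Against the filter value Rnf128 was 19.4-fold higher.

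Set beside the other wild-type groups, these Th2 genes were of more than one kind. Every Th2 sample exceeded every naive, Th0, Th1 and Th17 sample in 9 of the 12, with Gzmb, Lilrb4a and H2-Ab1 as the exceptions. Il24 (lowest Th2 sample 10.86, highest of the other groups 10.53) and Gbp11 (9.49 and 9.28) did so narrowly. The 12 were ranked on these Th2 samples, which favours such a count. The share over all genes was not counted, so the count is a description only. Adamtsl3 averaged 11.11 in Th2 and 4.23 to 4.51 in the other 5 wild-type groups, so it was high in the Th2 samples alone. Htr1b averaged 10.69 in Th2 and at most 5.91 elsewhere, and Efna5 10.10 in Th2 and at most 5.28 elsewhere. Gzmb, in contrast, averaged 11.38 in Th1, 10.66 in Th2, 10.40 in Th0, 6.12 in Th17, 3.69 in Treg and 3.41 in naive cells. Gbp11 averaged 7.54 in naive cells and 8.26 to 9.14 in Th0, Th1 and Th17, so that Treg, at 3.63, was the low group. Il24 averaged 10.41 in Th17 beside 11.13 in Th2.

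H2-Ab1, the beta chain of an MHC class II molecule that presents antigen to CD4 T cells, was at 9.76, 10.47 and 10.45 in Th2 and at 4.89, 4.93 and 4.62 in Treg, and averaged 10.02 in Th17. Other genes of the class II pathway, chosen after the values were seen, did not all share this. H2-Eb1, another class II beta chain, was at 5.44, 5.53 and 5.77 in Th2 and 5.49, 5.56 and 5.21 in Treg, a difference within the spread (0.16, SE 0.14). Ciita, the class II transactivator, differed by -0.08 (SE 0.14). H2-DMa, which helps to load peptide, was 3.17-fold higher in Th2, at 9.73 to 10.07 against 7.87 to 8.63. H2-DMb1 was 1.42-fold higher in Th2 (adjusted p = 0.0209), at 4.59 to 4.98 against 4.06 to 4.31, all under the filter value.

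The 12 largest differences in favour of Treg again leave out genes on the sex chromosomes, and microRNA hairpins too. In 6 of these 12 genes the Th2 mean lay under the filter value, so their order too depends on background. The largest fitted difference among them was that of Fermt1, which encodes the integrin activator kindlin-1, while the X-linked Foxp3 differed more (74.2-fold). Fermt1 was at 3.71, 4.06 and 4.11 in Th2 and at 9.33, 9.64 and 9.63 in Treg, a fitted 47.7-fold difference (log2 difference -5.57, SE 0.31, adjusted p = 7.96e-15) and 19.4-fold against the filter value. Abcc8, the sulfonylurea receptor of ATP-sensitive potassium channels, was at 4.52, 4.51 and 4.42 in Th2 and 9.75, 9.87 and 9.503 in Treg, a fitted 37.5-fold difference (SE 0.13, adjusted p = 8.99e-23) and 21.9-fold against the filter value. Glp1r, the receptor for the incretin hormone GLP-1, was at 4.99, 5.597 and 5.32 in Th2 and 10.72, 10.09 and 10.12 in Treg, 32.1-fold higher. These 3 genes are better known from skin and pancreas, and in all 3 the groups were separated by more than 4 log2 units. The apolipoprotein gene Apol9b, the myelin-associated protein gene Ncmap, the costimulatory receptor gene Cd40, the inhibitory receptor gene Cd101, the matrix protein gene Adamtsl2, Ikzf2, the matrix protease gene Adamts6, the sialyltransferase gene St8sia6 and the Ras exchange factor gene Rasgrp3 were higher in Treg by 29.7-, 23.3-, 22.1-, 21.5-, 18.8-, 17.9-, 17.1-, 16.9- and 16.8-fold in turn.

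In 11 of these 12 genes every Treg sample exceeded every naive, Th0, Th1 and Th17 sample. This count too is a description only, since the 12 were ranked on these Treg samples and the share over all genes was not counted. The exception was St8sia6, which averaged 10.65 in naive cells and 10.22 in Treg, and 6.14 to 7.36 in Th0, Th1, Th2 and Th17. Fermt1 averaged 9.54 in Treg and 3.79 to 4.84 in the other 5 wild-type groups, and Abcc8 9.71 in Treg and 4.48 to 4.78 elsewhere. Foxp3 was graded, with averages of 12.20 in Treg, 10.90 in Th0, 8.30 in Th1, 7.33 in naive cells, 7.10 in Th17 and 5.98 in Th2. Ikzf2 followed 9.92 in Treg with 8.26 in Th0, 7.22 in Th1, 6.40 in naive cells, 6.35 in Th17 and 5.76 in Th2. For both transcription factor genes Th2 had the lowest average of the 6 wild-type groups.

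**Figure D2:**
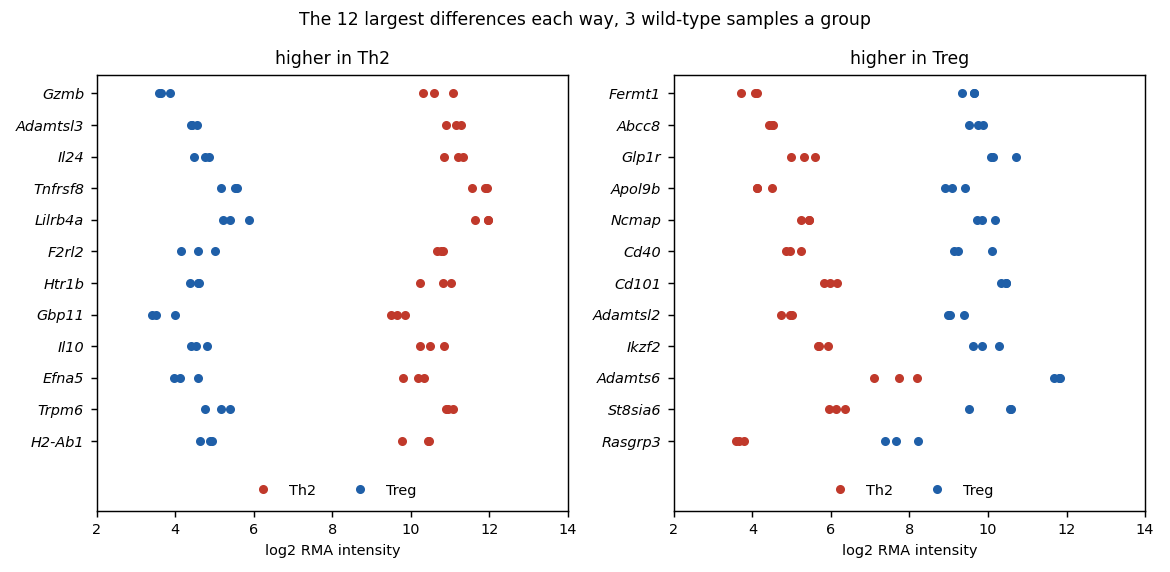
Log2 RMA intensity (horizontal axis) of the 12 autosomal genes with the largest difference in each direction, microRNA hairpins and uncharacterized symbols left out. Each point is a sample, Th2 red and Treg blue. The groups do not overlap in any of the 24 genes, as the rule for choosing them required, and Gzmb differed 125-fold and Fermt1 47.7-fold.

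Over all genes at least 2-fold apart, the Th0 average lay between the Th2 and Treg averages in 770 of 1248 genes higher in Th2 (61.7%) and in 527 of 659 genes higher in Treg (80%). The naive average lay below both groups in 703 of the 1248 genes higher in Th2. Th0 was nearer to Th2 than to Treg in 555 of the 1248 (44.5%) and in 406 of the 659 (61.6%), while Th17 was nearer to Th2 in 915 (73.3%) and 509 (77.2%). These are positions of group means with no test, since the Th2 and Treg samples set the scale.

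Of 22 tested genes in a list of Th2 cytokines and factors, 17 were higher in Th2 and 3 in Treg, with a median difference of 2.32, against 24.5%, 26.9% and -0.04 for all genes. Beside the cytokines, Epas1, the hypoxia-inducible factor HIF-2 alpha, was at 11.06, 10.99 and 10.93 in Th2 and 6.16, 5.71 and 6.24 in Treg, 31.1-fold higher. Plcd1, a phospholipase C, was at 10.58, 11.07 and 11.14 against 6.38, 6.35 and 6.17, 24.7-fold higher. Epas1 averaged 5.59 to 7.28 in the other 4 wild-type groups, so it too stood out in Th2. Further members, named after their values were seen, included Nfil3, a leucine zipper factor of cytokine gene control (16.6-fold), Il17rb, the IL-25 receptor subunit (11.9-fold), Pparg, a lipid-sensing nuclear receptor (11.4-fold), and Ccr4, a Th2 homing receptor (4.27-fold). The 3 members higher in Treg were Igfbp7, Il3 and Maf. Igfbp7, an insulin-like growth factor binding protein, was at 6.40, 6.78 and 7.39 in Th2 and 10.70, 10.70 and 10.50 in Treg. Maf, a transactivator of Il4, was 2.21-fold higher in Treg, at 9.57 to 9.86 against 8.35 to 8.76. Il3, a growth factor for mast cells, named like Maf and Igfbp7 because the count was small, passed narrowly (adjusted p = 0.0495) with 4.67, 7.09 and 6.62 in Th2 and 9.02, 7.02 and 7.79 in Treg, values that overlap. Il9 also passed narrowly (adjusted p = 0.0489) on 1 sample, with 5.19, 5.56 and 7.49 in Th2 and 4.86, 4.93 and 4.68 in Treg, and without Th2 sample 3 the difference was 0.55 with an adjusted p of 0.42. Il9 also lost its call with a replicate block (adjusted p = 0.0634).

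In a list of IL-4 receptor and STAT6 signalling genes, 6 of 18 were higher in Th2 (33.3%) and 3 in Treg (16.7%), against 24.5% and 26.9% of all genes, with a median of 0.02. Il4ra, the IL-4 receptor alpha chain, was at 11.52, 11.61 and 11.62 in Th2 and 10.80, 10.39 and 10.53 in Treg, 2.02-fold higher (SE 0.08). Stat6 was at 10.23 to 10.41 in Th2 and 10.29 to 10.44 in Treg, a difference of -0.02 (SE 0.09, adjusted p = 0.861). The receptor gene thus differed while the groups overlapped in the transcription factor gene. Xbp1, a secretory stress factor, and Irs2, an adaptor of the IL-4 receptor, were 3.22-fold and 2.49-fold higher in Th2, and Fes, a tyrosine kinase, was 5.68-fold higher in Treg at 8.86, 7.12 and 7.80 against 5.51, 5.23 and 5.52.

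Neighbours of the cytokine genes and of Foxp3 were read by RefSeq gene order on GRCm38.p6, up to 5 genes each way, chosen after the values were seen. Beside Il4, Septin8, a septin gene, was 2.28-fold higher in Th2, Kif3a, a kinesin gene next to Il4, was 2.77-fold higher in Th2, and Rad50, the DNA repair gene beyond Il13, was 1.57-fold higher. Slc22a5, a carnitine transporter gene further on, was 3.13-fold higher in Treg, while Irf1 beside it differed by -0.10 (adjusted p = 0.705). Around Il10, Il24 and the related cytokine gene Il19 were 85.9-fold and 5.11-fold higher in Th2, and Mapkapk2 and Dyrk3, the kinase genes that follow Il10, were 1.96-fold and 3.52-fold higher. Fcmr, the IgM Fc receptor gene, and Eif2d, at the edges of this run, were 1.82-fold and 1.36-fold higher in Th2. The calls themselves set the ends of this run, and 24.5% of all genes were called higher in Th2, so the run is a description only. Beyond it Rassf5 was not called (-0.09, adjusted p = 0.336) and Ikbke was 1.37-fold higher in Treg. Il19 was at 7.14, 7.06 and 6.56 in Th2 and 4.34, 4.69 and 4.66 in Treg. The neighbour of Foxp3 that was tested, Ppp1r3f, differed by -0.31 (adjusted p = 0.0681), and Usp27x next to it was 2.94-fold higher in Treg. Clcn5, a chloride transporter gene, and Plp2, further from Foxp3, were 2.63-fold and 1.65-fold higher in Th2.

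Of 37 tested Treg core genes, 18 were higher in Th2 (48.6%) and 10 in Treg (27%), against 24.5% and 26.9% of all genes, with a median of 0.35. The share higher in Treg was thus about that of all genes. Those higher in Treg included Foxp3, Ikzf2, Nt5e, which encodes the ectonucleotidase CD73 (8.08-fold), Itgae, the CD103 integrin chain (6.65-fold), and, named after the values were seen, the semaphorin receptor gene Nrp1 at 9.88, 9.82 and 10.07 against 5.57, 5.84 and 6.52 (15.4-fold) and Ikzf4, the Eos factor (2.75-fold). The members higher in Th2 included receptors and factors of activated T cells. Tigit, an inhibitory receptor, was at 9.66, 9.75 and 9.98 in Th2 and 5.42, 5.05 and 5.82 in Treg, 20.6-fold higher. Lag3, a further inhibitory receptor, was 4.34-fold higher, and Prdm1, which encodes the terminal differentiation factor Blimp-1, 8.05-fold higher. Ebi3, a subunit of IL-27 and IL-35, was at 9.23 to 9.64 in Th2 and 6.51 to 6.80 in Treg. Tnfrsf9 (4-1BB) was at 11.96, 12.40 and 12.33 in Th2 and at 6.71, 8.26 and 8.74 in Treg, where sample 1 was low, and was 20.1-fold higher, with a log2 difference of 3.73 in place of 4.33 without that sample. Il2ra, the high-affinity IL-2 receptor chain often used to mark Treg cells, was at 12.25, 12.46 and 12.45 in Th2 and 12.24, 12.28 and 12.31 in Treg (0.11, SE 0.24, adjusted p = 0.729). Ctla4 was at 9.75, 10.07 and 10.08 in Th2 and 9.59, 9.66 and 9.60 in Treg (0.35, SE 0.23, adjusted p = 0.218), and passed with only the 2 groups in the fit (adjusted p = 0.0433) or with array weights (adjusted p = 0.0206). Neither surface marker was called higher in Treg under any setting tried.

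TGF-beta signals through paired serine kinase receptors to SMAD2, SMAD3 and SMAD4, and induces its own inhibitors, among them SMAD7. In a list of ligands, receptors and activators, 7 of 21 were higher in Th2 (33.3%) and 6 in Treg (28.6%), near the 24.5% and 26.9% of all genes, with a median of 0.13. The ligand gene Tgfb3 was at 7.45, 8.68 and 9.01 in Th2 and 6.66, 6.33 and 5.75 in Treg, 4.39-fold higher in Th2, with a difference of 2.81 in place of 2.13 when the samples numbered 1 were left out of both groups. Tgfb1 was at 11.36 to 11.41 against 10.99 to 11.08, 1.27-fold higher in Th2 (adjusted p = 9.02e-05). Inhba, the activin A subunit, was 3.85-fold higher in Th2 (1.5-fold against the filter value). Both TGF-beta ligand genes were thus higher in Th2. Receptor genes, named after their values were seen, went both ways. Tgfbr2 was 2.63-fold higher in Treg, at 9.98, 10.01 and 9.88 against 8.78, 8.57 and 8.34, and Tgfbr1 1.61-fold higher. The BMP receptor genes Bmpr2 and Bmpr1a were 2.73-fold higher in Treg and 2.14-fold higher in Th2. Tgfbr3, a co-receptor, was 3.098-fold higher in Th2, and Furin, the protease that cleaves the TGF-beta precursor, was 3.32-fold higher in Treg.

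In the list of SMADs, feedback genes and targets, 16 of 34 were higher in Treg (47.1%, against 26.9% of all genes) and 7 in Th2, with a median of -0.21. Smad7 was at 7.94, 8.10 and 7.87 in Th2 and 10.47, 10.65 and 10.69 in Treg, 6.20-fold higher (SE 0.11, adjusted p = 7.79e-18). Its average in naive cells was 11.05 and in Th0 8.72, so the Treg level lay near that of naive cells. Ldlrad4, which encodes a membrane inhibitor of TGF-beta signalling, was at 7.67, 8.37 and 8.09 in Th2 and 11.41, 11.37 and 11.64 in Treg, 10.8-fold higher. Sox4, a TGF-beta responsive transcription factor gene, was 8.31-fold higher, and Itgae, a TGF-beta target, was at 8.58, 8.53 and 7.98 against 10.98, 11.08 and 11.23. The co-repressor genes Skil and Ski, named after their values were seen, were 3.39-fold and 2.20-fold higher in Treg, and Id2, an inhibitor of DNA binding, was 5.81-fold higher in Th2. Smad2 and Smad3 were not called (0.04 and -0.09), and Smad4 was 1.37-fold higher in Treg (log2 difference -0.45, adjusted p = 4.715e-05).

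In the glycolysis and hypoxia list, 24 of 25 tested genes were higher in Th2 (96%, against 24.5% of all genes). In Treg 0 were called higher by limma, against 26.9% of all genes (0 at an unadjusted p under 0.05 too), and the median was 1.998. Hk2, the inducible hexokinase, was at 9.12, 9.27 and 9.502 in Th2 and 5.87, 5.996 and 5.89 in Treg, 10.4-fold higher. Vegfa, the angiogenic growth factor, was at 9.65, 10.31 and 10.44 against 6.62, 6.78 and 6.61, 11.02-fold higher. Ak4, a mitochondrial adenylate kinase, was at 9.48, 9.83 and 9.86 against 3.81, 5.17 and 5.13, 32.4-fold higher, and Egln3, an oxygen-sensing prolyl hydroxylase, 10.1-fold. Among members named after their values were seen, Hif1a was 4.43-fold, the glucose transporter gene Slc2a1 3.80-fold and Ldha 1.48-fold higher. The list's range thus ran from isozymes that differed little to genes at more than 10-fold.

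In the cholesterol and fatty acid synthesis list, 21 of 24 were higher in Th2 (87.5%, against 24.5% of all genes). In Treg 0 were called higher by limma, against 26.9% of all genes (0 also at an unadjusted p under 0.05), and the median was 1.38. Fads2, a fatty acid desaturase, was at 10.76, 10.68 and 10.48 in Th2 and 6.46, 6.53 and 7.51 in Treg, 13.99-fold higher. Lss, the lanosterol synthase, was 5.84-fold higher, Scd1, the stearoyl desaturase, 5.14-fold, and Fdps, the farnesyl diphosphate synthase, 4.09-fold. Of 13 amino acid transporter genes, 7 were higher in Th2 (53.8%) and 2 in Treg (15.4%), against 24.5% and 26.9% of all genes. Slc7a5, the leucine transporter chain, was 2.81-fold higher in Th2, and Slc6a6, the taurine transporter, was at 8.51 to 8.67 in Th2 and 10.64 to 10.90 in Treg, 4.58-fold higher in Treg.

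In the proliferation list, 28 of 29 genes were higher in Th2 (96.6%, against 24.5% of all genes). In Treg 0 were called higher by limma, against 26.9% of all genes (0 also at an unadjusted p under 0.05), and the median was 1.61. Mki67, the common proliferation marker, was at 11.37, 11.15 and 11.29 in Th2 and 10.36, 9.65 and 9.90 in Treg, 2.46-fold higher (SE 0.42, adjusted p = 0.0102). Aurkb, a mitotic kinase, was at 10.65, 10.20 and 10.38 against 8.42, 7.75 and 7.98, 5.13-fold higher. The mitotic checkpoint kinases Ttk and Bub1 and the kinase Aurka were 4.27-, 4.18- and 4.04-fold higher. In naive and quiescence genes the order was reversed, with 15 of 22 higher in Treg (68.2%) and 2 in Th2 (9.09%), and a median of -0.83. Actn1, an actin cross-linker, was at 6.95, 6.69 and 6.92 in Th2 and 10.13, 10.39 and 10.47 in Treg, 11.1-fold higher. The complement regulator gene Cd55 and the quiescence factor genes Klf3 and Klf2 were 7.82-, 6.99- and 3.47-fold higher in Treg. Myc, the growth regulator, did not go with the Th2 growth genes, since it was 2.42-fold higher in Treg, at 10.90, 10.52 and 10.63 against 9.92, 9.23 and 9.08. The part of cell division in the other differences was not tested.

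**Figure D3:**
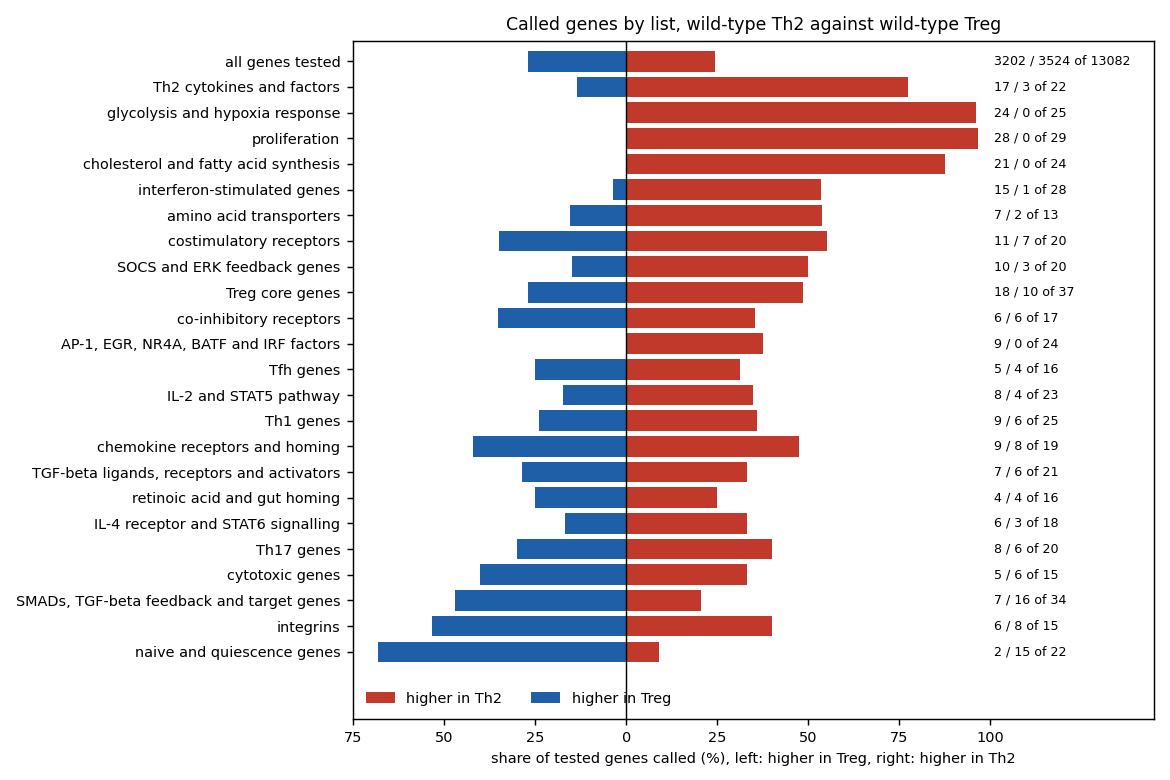
Share of tested genes called higher in Treg (left, blue) and in Th2 (right, red) in percent, for all 13082 genes and for 23 gene lists ordered by their median log2 difference, with the counts at the right. Among the 28 called proliferation, 24 glycolysis and 21 cholesterol genes none lay on the Treg side, and 18 of 37 Treg core genes lie on the Th2 side as well.

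Of 24 AP-1, EGR, NR4A, BATF and IRF factor genes, 9 were higher in Th2 (37.5%, against 24.5% of all genes). In Treg 0 were called higher by limma, against 26.9% of all genes (1 at an unadjusted p under 0.05, and 4 called with array weights). The list thus held fewer calls than all genes, 37.5% against 51.4%. Fosl2, a Fos-related factor, was at 10.22, 11.12 and 11.20 in Th2 and 6.82, 7.17 and 7.29 in Treg, 13.47-fold higher. Batf, a pioneer factor of effector T cells, was at 10.88, 11.11 and 11.10 against 7.39, 7.19 and 7.57, 12.5-fold higher, and its partner Irf4 was 7.43-fold higher at 10.89 to 11.32 against 7.72 to 8.58. The 3 genes, which also stand in the Th17 list, were thus high in all Th2 samples. Of 20 SOCS and ERK feedback genes, 10 were higher in Th2 (50%) and 3 in Treg (15%), against 24.5% and 26.9% of all genes. The phosphatase genes Dusp10 (7.57-fold), Dusp4 (6.81-fold) and Dusp6 (4.88-fold) led those higher in Th2, while the ERK inhibitor gene Spry1 was 2.94-fold higher in Treg.

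In the IL-2 and STAT5 list, 8 of 23 were higher in Th2 (34.8%) and 4 in Treg (17.4%), so that 52.2% were called against 51.4% of all genes, with a median of 0.19. Pim2, a survival kinase, was 4.32-fold higher in Th2. Xcl1, a chemokine for cross-presenting dendritic cells, was at 4.84, 4.51 and 4.66 in Th2 and at 6.31, 9.35 and 9.13 in Treg, where sample 1 was low, and was 12.1-fold higher in Treg, with a log2 difference of -4.57 in place of -3.59 without that sample. Il2 itself was low in both, at 3.69 to 4.12 in Th2 and 3.94 to 4.35 in Treg (adjusted p = 0.722), and passed in 1 setting, a replicate block with only the 2 groups in the fit (adjusted p = 0.049).

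Genes of the other helper fates showed which markers were absent and which components differed. Tbx21, the Th1 regulator, was at 5.31 to 5.79 in Th2 and 4.99 to 5.66 in Treg and averaged 10.79 in Th1 (adjusted p = 0.53). Ifng was at 5.31 to 5.50 and 5.23 to 5.84 and averaged 10.37 in Th1. Il17a and Il17f were at 4.04 to 4.08 and 4.90 to 5.22 in Th2 and at 4.17 to 4.37 and 4.67 to 5.32 in Treg, while they averaged 8.64 and 11.93 in Th17. The signature cytokines and Tbx21 thus stayed low in both groups. Within the Th1 list, 9 of 25 were higher in Th2 (36%) and 6 in Treg (24%), against 24.5% and 26.9% of all genes. The IL-12 receptor genes Il12rb2 and Il12rb1 were at 8.31, 8.97 and 9.83 and at 10.07, 10.14 and 9.97 in Th2, against 4.39, 4.13 and 4.75 and 6.36, 5.78 and 5.93 in Treg, 24.5-fold and 16.4-fold higher in Th2. Against the filter value Il12rb2 was 13.7-fold higher. The IL-18 receptor gene Il18r1, named after its values were seen, went the other way, 7.80-fold higher in Treg. Of 20 Th17 genes, 8 were higher in Th2 (40%) and 6 in Treg (30%), the latter including Ccr6, a receptor for CCL20 (3.80-fold, with 4.86, 6.32 and 7.51 in Treg), and Ahr, a sensor of aromatic ligands (3.55-fold). Basp1 was 5.75-fold higher in Th2. Of 16 Tfh genes, 5 were higher in Th2 (31.2%) and 4 in Treg (25%), near the shares of all genes. Icos, a costimulator, and Slamf6 were 2.57-fold and 2.20-fold higher in Th2, and Tox, a factor of chronic stimulation, was 3.30-fold higher in Treg. Id3, an E protein inhibitor, was at 8.20, 6.52 and 6.55 in Th2, with sample 1 high, and at 9.57, 9.59 and 9.34 in Treg.

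Of 15 cytotoxic genes, 5 were higher in Th2 (33.3%) and 6 in Treg (40%), against 24.5% and 26.9% of all genes. Gzma, a granzyme, was at 8.19, 8.71 and 9.06 in Th2 and 4.17, 4.25 and 4.36 in Treg, 21.0-fold higher in Th2 like Gzmb. Against the filter value Gzma was 10.5-fold higher. Ctsw, a cathepsin of cytotoxic cells, was at 8.87, 8.78 and 8.18 in Th2 and 12.25, 12.19 and 12.19 in Treg, 12.1-fold higher in Treg. Nkg7, a granule membrane protein, was 7.999-fold higher in Treg, at 9.25, 9.04 and 9.77 against 6.47, 6.44 and 6.15, and the pore-forming Prf1, named after its values were seen, 4.08-fold higher. Granzyme genes and the perforin gene thus lay on opposite sides.

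Of 19 chemokine receptor and homing genes, 9 were higher in Th2 (47.4%) and 8 in Treg (42.1%), against 24.5% and 26.9% of all genes. The 9 differed at least 2-fold while 2 of the 8 did. Gpr183, an oxysterol receptor, was at 9.94, 9.15 and 9.13 in Th2 and 5.41, 5.91 and 6.40 in Treg, 11.3-fold higher. Ccr10, a skin homing receptor, was at 9.02, 7.62 and 6.86 against 4.58, 4.15 and 4.33, 11.2-fold higher, with a log2 difference of 2.89 in place of 3.48 without Th2 sample 1. Ccr2 and Cxcr6 were 9.22-fold and 7.50-fold higher in Th2, Ccr2 3.88-fold against the filter value. Of 15 integrin genes, 8 were higher in Treg (53.3%) and 6 in Th2 (40%), against 26.9% and 24.5% of all genes. Itga4, the alpha chain of VLA-4 and of the gut homing integrin, was at 5.42, 5.76 and 5.81 in Th2 and 9.01, 9.22 and 9.47 in Treg, 11.9-fold higher, and the laminin receptor chain gene Itga6 was 6.01-fold higher in Treg. Itgb5 was 7.45-fold higher in Th2. Of 16 retinoic acid and gut homing genes, 4 were higher in each group (25%), the share of all genes within 2 percentage points. Tgm2, a transglutaminase, was 18.2-fold higher in Th2 at 8.84, 9.74 and 10.87 against 5.81, 5.39 and 5.69, and Asb2, a ubiquitin ligase subunit, 15.8-fold. Against the filter value Asb2 was 7.64-fold higher. Rdh10, a retinol dehydrogenase, was at 7.51, 9.16 and 9.29 in Th2 and 7.16, 7.62 and 7.57 in Treg, where Th2 sample 1 overlapped Treg. It was 2.31-fold higher in Th2 (adjusted p = 0.00028), with a log2 difference of 1.78 in place of 1.21 without that sample, and missed the threshold with only the 2 groups in the fit (adjusted p = 0.0571).

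Of 20 costimulatory receptor genes, 11 were higher in Th2 (55%) and 7 in Treg (35%), against 24.5% and 26.9% of all genes. Tnfsf14 (LIGHT) was 5.003-fold higher in Th2 and Cd27 5.67-fold higher in Treg, at 10.29, 10.66 and 10.65 against 8.36, 7.73 and 8.01. Of 17 co-inhibitory receptor genes, 6 were higher in each group (35.3%), against the same 24.5% and 26.9%. Cd101 was at 5.82, 5.99 and 6.16 in Th2 and 10.45, 10.33 and 10.47 in Treg. Of 28 interferon-stimulated genes, 15 were higher in Th2 (53.6%, against 24.5% of all genes) and 1 in Treg, with a median of 0.84. Usp18, an inhibitor of interferon signalling, was at 8.63, 8.10 and 8.32 in Th2 and 5.001, 5.36 and 5.47 in Treg, 8.43-fold higher. The antiviral gene Oas3 and the exonuclease gene Isg20 were 6.54-fold and 3.77-fold higher. Ifit1, an antiviral RNA binding protein, was at 8.55, 6.96 and 6.42 in Th2, with sample 1 high, and 5.25, 5.07 and 4.92 in Treg, and its difference was 1.61 in place of 2.23 without that sample.

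Markers of other cells were low apart from a few. Of 6 CD4 T cell markers all were above the table's median in every sample, with summed log2 levels of 65.24 to 65.76 in Th2 and 64.65 to 65.66 in Treg. Cd4 and Cd28 were 1.34-fold and 1.48-fold higher in Th2 and Cd3e and Thy1 1.41-fold and 1.28-fold higher in Treg, and Cd28 lost its call with only the 2 groups in the fit (adjusted p = 0.056) and was at 0.32 in place of 0.57 without Treg sample 1, where it was low. Of 6 myeloid markers, 3 were tested. Adgre1, the macrophage marker F4/80, was at 8.81, 8.80 and 8.30 in Th2 and 4.39, 4.38 and 3.96 in Treg, 21.0-fold higher, and the Fc receptor gene Fcgr3 was 2.72-fold higher in Th2. Against the filter value these folds were 10.4 and 1.94. Itgam was 2.50-fold higher in Treg (1.30-fold against the filter value). Lyz2, Csf1r and Cd14 lay at 3.65 to 5.08 in all 6 samples, below the filter. The summed myeloid level was 30.92 to 32.57 in Th2 and 27.25 to 27.96 in Treg. Of 2 CD8 genes, Cd8b1 was 2.17-fold higher in Th2 and Cd8a, at 4.43 to 5.64 and 5.08 to 5.69, was not called. Of 4 B cell markers on the array 2 were tested, and Cd79b was 1.70-fold higher in Th2 with 5.69 to 6.24 against 5.06 to 5.53. Of 7 mast cell, basophil and eosinophil markers 2 were tested, and Cpa3 was at 6.73, 4.90 and 4.77 in Th2 and 4.20, 4.36 and 4.15 in Treg, a call carried by Th2 sample 1 (adjusted p = 0.0183, and 0.236 without it). Of 5 NK and gamma-delta T cell markers 2 had a probe set and neither was tested, and none of 4 erythroid markers had one. What part such cells had in the results was not tested.

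Probe sets named for microRNA hairpins were set apart from the ranking. Of 181 tested, 16 were higher in Th2 (8.84%) and 42 in Treg (23.2%), against 24.5% and 26.9% of all genes. The miR-181 family, chosen after its values were seen, held the largest of these differences. MiR-181 is known for tuning T cell receptor sensitivity in thymocytes. The mature sequences from RefSeq on GRCm38.p6 are shown because the 4 members share 1 seed, bases 2 to 8, in capitals.
miR-181a-5p: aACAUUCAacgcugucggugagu
miR-181b-5p: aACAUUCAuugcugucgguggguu
miR-181c-5p: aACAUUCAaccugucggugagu
miR-181d-5p: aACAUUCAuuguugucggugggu
The probe set of Mir181b-2 (chromosome 2) was at 3.63, 3.61 and 3.48 in Th2 and 8.90, 8.21 and 8.56 in Treg, a fitted 31.7-fold difference (log2 difference -4.98, SE 0.17, adjusted p = 2.44e-19) and 9.85-fold against the filter value. That of Mir181a-2, its neighbour, was at 3.85, 3.60 and 3.57 against 6.26, 6.52 and 6.77, 7.20-fold higher (2.40-fold against the filter value). Mir181b-1 (chromosome 1) was at 4.21, 4.17 and 5.16 against 9.001, 9.29 and 9.16, 24.8-fold higher (14.9-fold against the filter value), and its neighbour Mir181a-1, below the filter, at 3.03 to 3.29 against 4.20 to 4.58. Of the third pair (chromosome 8), Mir181c was at 6.57, 6.56 and 6.60 against 9.05, 8.59 and 8.47, 4.37-fold higher, and Mir181d 1.35-fold higher. The 5 tested members were thus called higher in Treg, Mir181d by little. In the KO samples the differences were -4.95 for Mir181b-2, -4.10 for Mir181b-1, -1.88 for Mir181a-2, -2.53 for Mir181c and 0.04 for Mir181d. The array was hybridised with labelled total RNA, so these probe sets do not tell a hairpin from its longer host transcript, and the mature microRNAs were not measured.

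**Figure D4:**
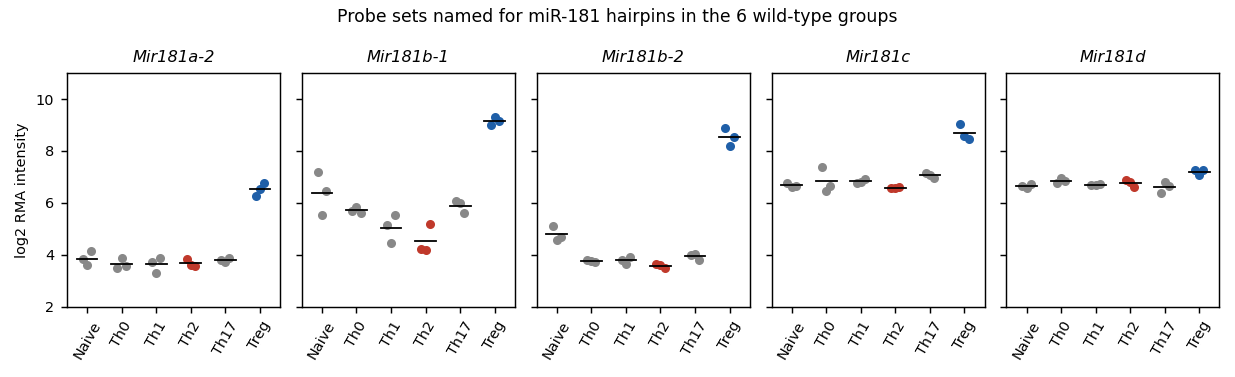
Log2 RMA intensity (vertical axis) of the 5 tested probe sets named for miR-181 hairpins in the 6 wild-type groups, 1 point a sample with a line at the mean of 3. Mir181b-2 was at 8.21 to 8.90 in Treg and at 3.48 to 3.63 in Th2, and Treg stands above the other groups in each of the first 4 panels.

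The same contrast in TRIM28KO cells, which uses other samples, called 6267 genes (47.9%), 23.3% higher in Th2 and 24.6% in Treg, and at 2-fold or more 1671 (12.8%), 8.23% and 4.54% in the 2 directions. Of the 1248 genes at least 2-fold higher in wild-type Th2, 1226 had the same sign in KO (98.2%) and 1075 were called the same way (86.1%). Of the 659 higher in Treg, 645 (97.9%) had the same sign and 596 (90.4%) were called. Foxp3 differed by -6.32 in KO, Il4 by 4.21, Il13 by 3.35, Gata3 by 1.84 and Adamtsl3 by 6.15, so these genes were separated in both genotypes. Il2ra and Ctla4 were not called in KO either (0.045 and 0.025).

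The difference between genotypes itself was called in 1154 genes (8.82%), 463 (3.54%) where the signed Th2 minus Treg difference was higher in wild type and 691 (5.28%) where it was higher in KO. With a 2-fold minimum the calls were 378 (2.89%), 1.49% and 1.4% in the same order. Among the genes at least 2-fold higher in wild-type Th2, it was called in 251, with the KO difference smaller in 200, and among those higher in Treg in 140, smaller in 124. These genes were chosen for a large wild-type difference, which by itself favours a smaller KO difference, so this split is a description only. Efna5 differed by 5.88 in wild type and by 0.55 in KO, the largest loss, and Tcaf3, a regulator of cold-sensing channels, by 5.06 and 0.10. In KO the Efna5 averages were 4.81 in Th2 and 4.25 in Treg, against 10.10 and 4.22 in wild type. Fermt1 differed by -5.57 in wild type and -0.50 in KO, with KO averages of 3.94 in Th2 and 4.44 in Treg. Pcp4, a calmodulin-binding protein gene, differed by -0.97 and -5.50, and Ly6g, a neutrophil surface antigen gene, by 1.52 and 5.66. Mpzl2, an epithelial adhesion gene, differed by 0.06 in wild type and 3.61 in KO. Within the lists, the proliferation median was 1.61 in wild type and 1.01 in KO, with 28 and 16 of 29 genes called, while the genotype difference was called in 0 of the 29 by limma (4 at an unadjusted p under 0.05). The fitted difference was larger in wild type in all 29, a description only, since the same share over all genes was not counted. KO Treg sample 3 was high in members such as Mki67 (10.43 against 9.30 and 9.35 in the other KO Treg samples) and Aurkb (8.73 against 7.735 and 7.465). In the glycolysis and hypoxia list the difference was called in 7 of 25, Vegfa among them at 3.46 in wild type and 0.13 in KO.

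**Figure D5:**
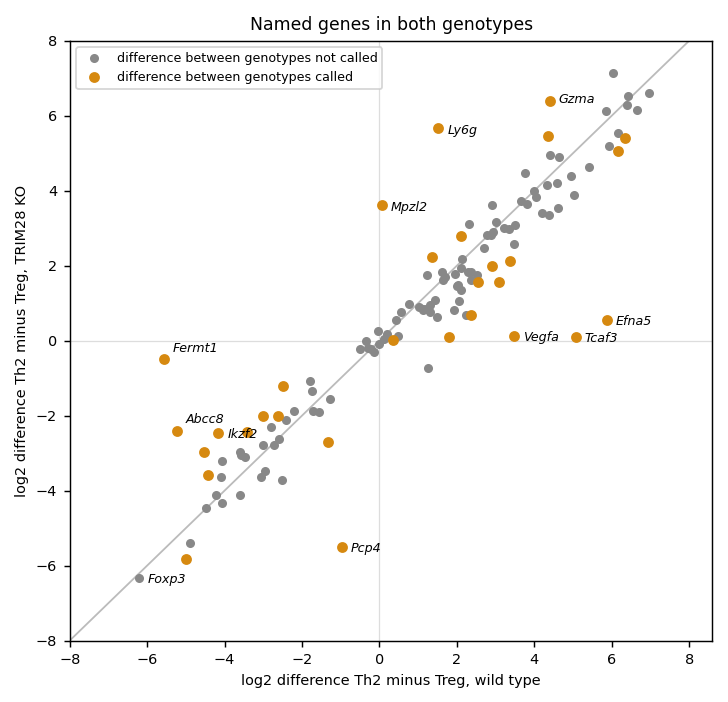
Log2 difference of Th2 minus Treg in wild type (horizontal axis) and in TRIM28KO (vertical axis) for the 129 tested named genes, 1 point a gene, with a line at equal values. Orange points are the 30 genes whose difference between genotypes was called, such as Efna5 (5.88 and 0.55) and Fermt1 (-5.57 and -0.50).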

How the data were processed

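Log2 intensities of 41345 probe sets in 36 samples were deposited by the authors, who made them with RMA in R 3.1.0 with the oligo package, per the submitters' processing notes; the genome build is not given in the sources used here. Of the probe sets, 23521 had 1 annotated symbol, 1814 several and 16010 none. The probe set with the highest mean stood for each of 22180 genes, and 13082 genes above the table's median of 5.26 in at least 3 samples were tested. A model of 12 group means was fitted to all samples with limma 3.58.1 in R 4.3.3, and genes were called at an adjusted p under 0.05. The number of arrays limits the precision.

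Named genes were a fixed set, the 12 largest called differences in each direction whose samples did not overlap, the largest members of each list and the largest differences between genotypes. The ranking left out genes on the sex chromosomes, microRNA hairpins and other small RNAs, uncharacterized symbols, and T cell receptor and immunoglobulin segments. Others are said to be named after their values were seen. The members and lists were chosen with earlier results of these data known. Deviations of wild-type Th2 and Treg samples of the same number correlated across genes with r of 0.28, 0.156 and 0.165. Th2 sample 3 with Treg sample 2 also gave 0.165, and Th2 sample 2 with Treg sample 3 gave 0.086. Only the samples numbered 1 thus stood apart. In KO the same numbers gave 0.145, 0.054 and 0.119. Whether equal numbers mark pairs is not settled by these values, so a replicate block was tried only as an alternative (consensus correlation 0.0597 as a random block). On simulated data the fit recovered 58.2%, 86.6% and 100% of genes changed by 0.5, 1 and 2 log2 units, with 5 false calls among 12882 unchanged genes. The simulation changed only 67, 67 and 66 of 13082 genes and drew independent normal noise for each sample. In the data 51.4% of genes were called, so these rates check the fit and need not hold for the data.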

Additional observations from a re-analysis of the deposited data

Results flagged for a closer look

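The Th2 against Treg difference itself differed between wild type and TRIM28KO in 1154 of 13082 genes and in 30 of 129 tested named genes (limma, Benjamini-Hochberg adjusted p under 0.05 for the difference of the differences). Values here are the wild-type minus the KO log2 difference of Th2 minus Treg. In 21 of the 30 the KO difference was the smaller one, and in 9 it was larger or opposite. Some of these genes were named because of this contrast, so their sizes are a description. Causes were not tested.

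Among genes higher in Th2 that differed less in KO, the value was 5.33 for Efna5 and 4.97 for Tcaf3. Vegfa was at 3.33, and the amino acid transporter genes Slc1a4 and Slc7a3 were at 1.69 and 1.67. Usp18 was at 1.51, Hk2 at 1.25, Htr1b at 1.12, Lss at 0.98, Lilrb4a at 0.96, Itgb5 at 0.91 and Tgfb1 at 0.34. Among genes higher in Treg that differed less in KO, the value was -5.07 for Fermt1, -2.83 for Abcc8, -1.71 for Ikzf2 and -1.57 for Ncmap. Cd27 was at -1.30, Ldlrad4 at -1, Nt5e at -0.99, Cd101 at -0.84 and Smad7 at -0.61.

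The difference was larger in KO for 9 genes. Among those higher in Th2, Ly6g was at -4.14, Mpzl2 at -3.55, Gzma at -1.99, Tigit at -1.09, Icos at -0.86 and Pim2 at -0.68. Among those higher in Treg, Pcp4 was at 4.53, Itgam at 1.38 and Glp1r at 0.82. Mpzl2 was not called in wild type (0.06, adjusted p = 0.922).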

How the results depend on the processing

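Of 129 tested named genes, 122 kept their side of the threshold under every alternative run. Il9, Cd28, Cpa3, Rdh10 and Trim28 lost their call in at least 1, and Ctla4 and Il2 gained one in at least 1. Of the genes called in the main fit 0 reversed. Some uncalled genes near 0 changed sign between runs, such as Stat6 (-0.06 to 0.04) and Mpzl2 (-0.20 to 0.28). The replicate block gave 6941 called genes (3285 higher in Th2, 3656 in Treg) against 6726 without it, 6906 as a random block, and 6048 with only the 6 samples in the fit. It ended the call of Il9, and with the 6 samples alone called Ctla4 and Il2. With the 6 samples alone and no block 5718 genes were called, 5570 of them shared with the main fit. Testing all probe sets called 10201, of which 6067 were higher in Treg. The 2-fold rule left 1907 calls in wild type (1248 and 659), 1671 in KO (1077 and 594) and 378 for the difference between genotypes (195 higher in wild type, 183 in KO). That difference was the least stable count, with 3288 calls under array weights (1746 and 1542), 522 with only the compared groups in the fit (224 and 298), 529 with a replicate block there (255 and 274), and 713 higher in wild type after cyclic loess; the cause was not tested. Leaving out 1 sample in turn gave 5922 to 6464 calls in wild type (2861 to 3175 higher in Th2, 2955 to 3437 in Treg), 5469 to 6121 in KO (2781 to 2848 and 2688 to 3330) and 764 to 1673 for the difference (301 to 771 and 454 to 902). The extremes of the difference came without wild-type Treg sample 1 (771 higher in wild type), without wild-type Treg sample 3 (764 in all, 454 higher in KO) and without KO Treg sample 2 (301 higher in wild type). Leaving out the wild-type samples numbered 1 together, chosen after seeing the data, gave 6221 calls (3054 and 3167). The scalings moved the median over all genes from -0.04 to between 0.02 and 0.06. Second probe sets gave smaller differences for Gata3 (1.19), Dusp6 (0.10), Slamf6 (0.46) and Sox4 (-1.67). Signal near background limits genes below the filter, such as Il5.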
